A study of Mus musculus with 3 samples.

Results

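The 45S ribosomal RNA (rRNA) unit assembled on mouse chromosome 17, named Rn45s, was examined for DNA methylation in ID8 cells. Its members were all CCCGGG sites listed on chromosome 17 (build mm9) inside the interval that bounds this copy. These are 10 sites, from position 39979255 to position 39985699, out of 173449 sites listed in the genome. Of these, 9 had at least 10 reads in every library and are called covered, as were 24112 sites of the whole genome. The interval was selected on measured values: its sites were known to be partly methylated and very deeply read in these libraries. Level and depth are therefore given as descriptions, without a test.

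ID8 is an established ovarian cancer line made from ovarian surface epithelial cells of a female C57BL/6 mouse. It was grown in serum-containing medium with an antibiotic and received no treatment. The series holds 1 group of 3 libraries, replicates 1 to 3, with no control group and no second genotype. The series calls the samples independent but does not say that they were separate cultures, so a p-value between libraries tells only how these samples differ, possibly for technical reasons.

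A 45S unit is transcribed by RNA polymerase I into a long precursor. That precursor is cut and trimmed into the 18S, 5.8S and 28S rRNAs of the ribosome, with external and internal transcribed spacers removed. Such units stand in tandem arrays of many near-identical copies, and in mammals only some of them are transcribed at a time. Methylation of the promoter of a copy is known to accompany its silencing. The deposited files give 1 count per site, so reads from different copies cannot be told apart, and a level here is an average over every copy whose reads were placed on this locus.

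Methylation was read by digital restriction enzyme analysis of methylation (DREAM). SmaI cuts the site only when its CpG is unmethylated, and XmaI then cuts the sites that are left. The start of a read thus tells the state of the site. The recognition site and both read starts are shown because every value rests on them, and capitals mark the bases of the CpG.
SmaI and XmaI site: ccCGgg
unmethylated read start: Ggg
methylated read start: cCGgg

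Positions are those of the deposited files on mm9. No annotation of that build was used, so no site was assigned to the promoter, to a mature rRNA or to a spacer. In the RefSeq gene table of another build, GRCm38.p6, chromosome 17 holds Rn18s-rs5, a pseudogene related to 18S rRNA, followed by the long non-coding RNA AY036118, with Esp15 and Esp38, genes of secreted peptides, on either side. The listed sites were not placed against these genes.

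The libraries held 7689526, 9190335 and 10361138 reads in replicates 1, 2 and 3. The unit took 407011, 490635 and 551358 of them, or 5.29%, 5.34% and 5.32%. The share was thus nearly the same in each library (5.32% ± 0.0230, SD, n = 3). Exact Clopper-Pearson intervals (95%) are given below for single libraries. They cover counting error only, since it is not stated whether copies of 1 molecule were collapsed.

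The unit was partly methylated, and unevenly so. The mean level over the 9 covered sites was 29.2%, 31.4% and 30.6% in replicates 1, 2 and 3 (30.4% ± 1.12, SD, n = 3), and the median site was at 38.3% ± 0.544. Site means ran from 0.0084% to 51.7%, a span of 51.7 percentage points ± 2.90. Of the 9 sites, 2 were low (under 10%), 7 were partial (10% to under 70%) and 0 were high. Elsewhere in the genome the low class held 10915 of 24103 covered sites, the partial class 3826 and the high class 9362. The mean over the 1193 covered sites on the rest of chromosome 17 was 40.8% ± 0.212.

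**Figure D1:**
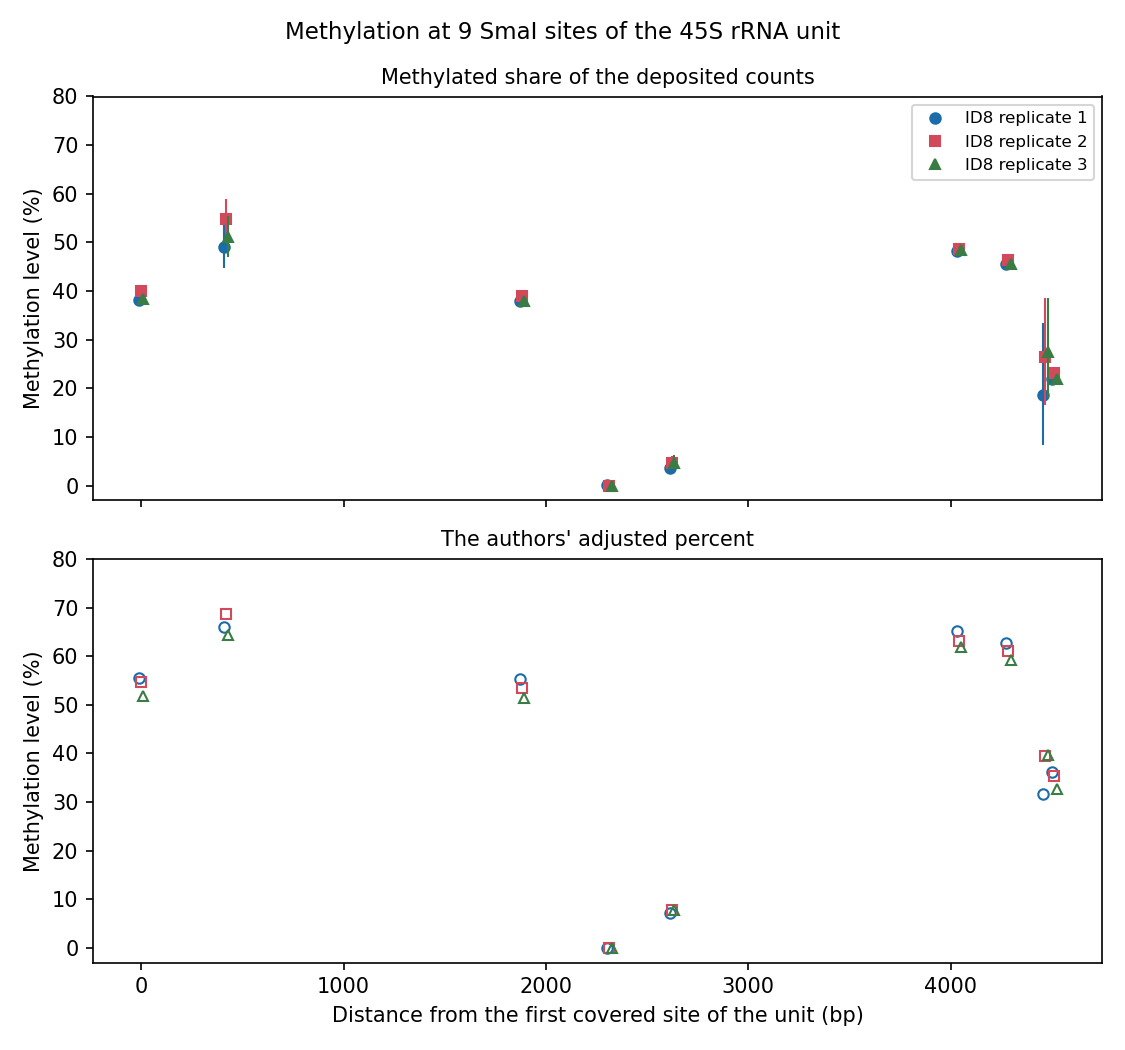
Methylation level (%) of the 9 covered sites against the distance in bp from the first of them, with 1 symbol per library. The upper panel gives the methylated share of the deposited counts with exact 95% intervals and the lower panel the authors' adjusted percent. In both panels the sites 2314 and 2622 bp from the first lie far below all others.

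The first listed site, at 39979255, had no read in any library. A count of 0 allows up to 3 reads, or 3.90e-05%, 3.26e-05% and 2.90e-05% of the reads of replicates 1, 2 and 3. The next site lies 1931 bp further on, at 39981186. There 37878 of 99173 reads were methylated in replicate 1 (38.2%, interval 37.9% to 38.5%), 40865 of 102221 in replicate 2 (40.0%, interval 39.7% to 40.3%) and 43286 of 112779 in replicate 3 (38.4%, interval 38.1% to 38.7%). Its mean was 38.9% ± 0.980 (SD, n = 3), with replicate 2 above the other libraries.

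The site at 39981605, 419 bp further, was the most methylated of the unit. It was at 49.1% in replicate 1, 54.8% in replicate 2 and 51.2% in replicate 3 (51.7% ± 2.90, SD, n = 3). It held only 505, 558 and 545 reads, and its intervals were wide, 44.7% to 53.6% in replicate 1. The site at 39983068 returned to the level of 39981186, with 38.0%, 38.9% and 38.0% in the 3 libraries (38.3% ± 0.544) over 66786, 65926 and 72670 reads. These sites, 1882 bp apart, differed by less than the larger of their SDs.

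Methylation was nearly absent at 39983500, 432 bp past 39983068. Of 51395, 49929 and 55829 reads there, 7, 4 and 2 were methylated in replicates 1, 2 and 3. The levels were 0.0136% (interval 0.00548% to 0.0281%), 0.0080% (interval 0.0022% to 0.0205%) and 0.0036% (interval 0.00043% to 0.0129%), with a mean of 0.0084% ± 0.0050 (SD, n = 3). The unmethylated reads of this site, 51388, 49925 and 55827, outnumbered those of 39983068, 41421, 40263 and 45063. The methylated reads at 39983068 numbered 25365, 25663 and 27607. The 2 sites thus differed mainly in their methylated reads.

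The signed difference between these adjacent sites, right minus left, was -38.3 percentage points ± 0.545 (SD, n = 3), with the same direction in 3 of 3 libraries. Among the 4409 pairs of adjacent covered sites 250 to 500 bp apart in the rest of the genome, the median absolute difference was 5.12 points, and 25.7% of pairs differed by as much or more. Steps of this size were thus not rare at this spacing. Outside the unit, 217 covered sites had at least 5000 summed reads, and 176 of them were low with a median level of 0.143%. The level of 39983500 was reached or undercut by 11 of the 217, each with no methylated read. Most of the 217 had far fewer reads than its 157153 summed reads, and any methylated read would put them above its level. The count thus cannot show how unusual this level is.

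The following site, at 39983808, was also low. It had 3.66% (29 of 793 reads), 4.54% (44 of 970) and 4.72% (48 of 1017) in the 3 libraries, a mean of 4.30% ± 0.568 (SD, n = 3). The next covered site, 1419 bp further, was higher by 44.1 points ± 0.363. For the 917 other pairs 1000 to 5000 bp apart the median absolute difference was 41.4 points, and 48.7% of pairs differed at least as much. Thus 2 adjacent covered sites were low, with sites at 38.3% and 48.4% on either side. The low sites held 157153 and 2780 summed reads, and whether both average over the same copies was not tested.

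The sites at 39985227 and 39985472 were the most methylated of the deeply read ones. At 39985227 the levels were 48.1%, 48.6% and 48.5% (48.4% ± 0.232, SD, n = 3) over 71704, 109989 and 124896 reads. At 39985472 they were 45.5%, 46.4% and 45.6% (45.8% ± 0.486) over 92827, 143905 and 165412 reads, the deepest site of the whole series. The first of these was higher in 3 of 3 libraries, with a difference of 2.60 points ± 0.356.

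The last sites of the unit were less methylated. At 39985655 only 8 of 43, 18 of 68 and 22 of 80 reads were methylated (18.6%, 26.5% and 27.5%, mean 24.2% ± 4.87, SD, n = 3). This site had the fewest reads of the covered members, and its interval in replicate 1 ran from 8.39% to 33.4%. At 39985699, 44 bp further, 21.9%, 23.2% and 21.9% of 23785, 17069 and 18130 reads were methylated (22.3% ± 0.776). The order of these neighbours held in 2 of 3 libraries, and their difference was smaller than the larger of their SDs. From 39985472 to 39985655, 183 bp apart, the signed difference was -21.6 points ± 4.66.

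In order of mean level the covered sites ran 39981605, 39985227, 39985472, 39981186, 39983068, 39985655, 39985699, 39983808 and 39983500. Each step but 2 exceeded the larger SD of the sites it joins and kept its direction in 3 of 3 libraries. The exceptions were 39981186 with 39983068, which were in order in 3 of 3 libraries, and 39985655 with 39985699. The step from 39981605 to 39985227 was 3.31 points, little more than the SD of 2.90 at the first site. Sites of the unit share their source and are not replicates of each other.

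Depth along the unit fell into separate ranges. The median covered site on the rest of chromosome 17 had 176, 191 and 218 reads in replicates 1, 2 and 3, and the deepest had 2707, 3072 and 3439. Relative to that median, 39985472 was 679.9 times as deep (± 132, SD, n = 3), 39981186 was 539 times (± 23.3), 39985227 was 519 times (± 96.4) and 39983068 was 353 times (± 24.0). The unmethylated site 39983500 was at 269.8 times the median (± 19.4), and was the median of the unit. The site 39985699 was at 103 times (± 28.4). All 6 of these were deeper than every other site of chromosome 17 in every library.

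The remaining 3 covered sites were far shallower although they stand among the deep ones. The site 39983808 was at 4.75 times the chromosome median (± 0.296, SD, n = 3), 39981605 at 2.76 times (± 0.230) and 39985655 at 0.322 times (± 0.0679). They took 0.192%, 0.112% and 0.0130% of the reads of the unit, against 27.4% at 39985472. Summed over the libraries, 39981605 had 1608 reads where 39981186, 419 bp away, had 314173, and 0% of the 4409 other pairs at 250 to 500 bp differed so much in reads. The drop from 402144 reads at 39985472 to 191 at 39985655 was matched by 0% of 4030 pairs at 100 to 250 bp. No such pair could have matched it. The deepest covered site outside the unit, with 240822 summed reads, has its nearest listed site 28942 bp away. The next had 15577, and none had fewer than 30. From 39983500, with 157153 reads, to 39983808, with 2780, the change was reached by 0.975% of the pairs at 250 to 500 bp. The unit was selected as very deeply read, so these shares are no result about it.

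The shallow sites did not share a level, since they included the most methylated site, a low site and one at 24.2%. Their mean was 26.7% ± 2.58 (SD, n = 3), and that of the 6 deep sites was 32.3% ± 0.493. How reads matching several copies were placed is not stated in the labels or headers, and whether this sets the depth of single sites was not tested. The ratio to the median depends on the sites it is set against: for the median member it was 143 with only the chromosome 17 sites that have at least 2 listed sites within 500 bp, and 9302 with all those that have at least 1 read in every library.

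**Figure D2:**
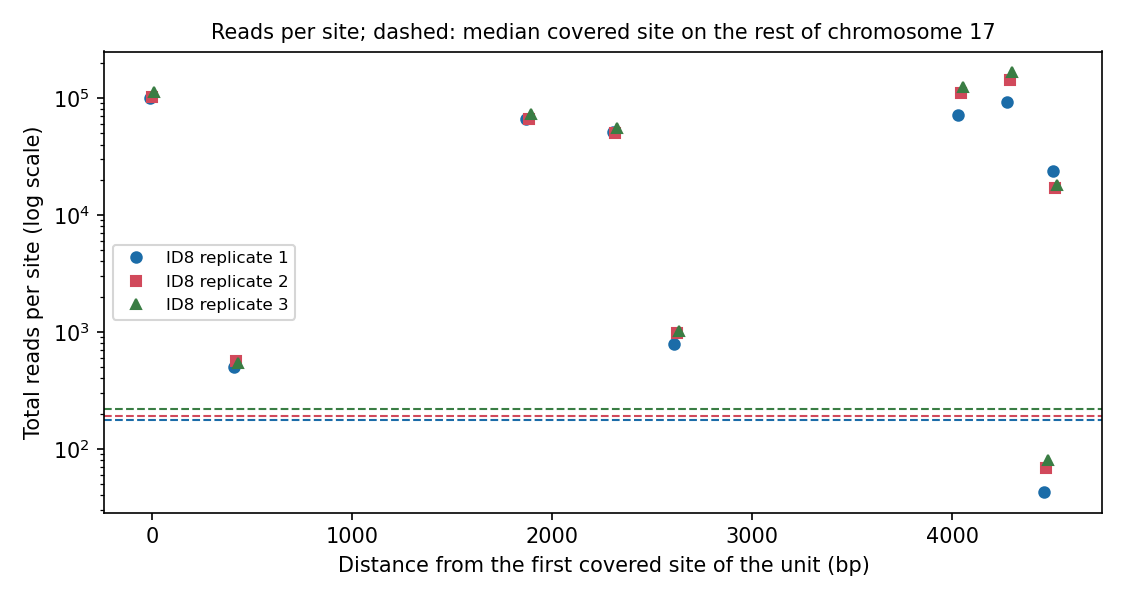
Total reads per covered site (log scale) against the distance in bp from the first covered site, with 1 symbol per library and the chromosome 17 median of each library as a dashed line. In every library 6 sites hold 17069 reads or more, 2 between 505 and 1017 reads and 1 below the dashed lines.

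**Figure D3:**
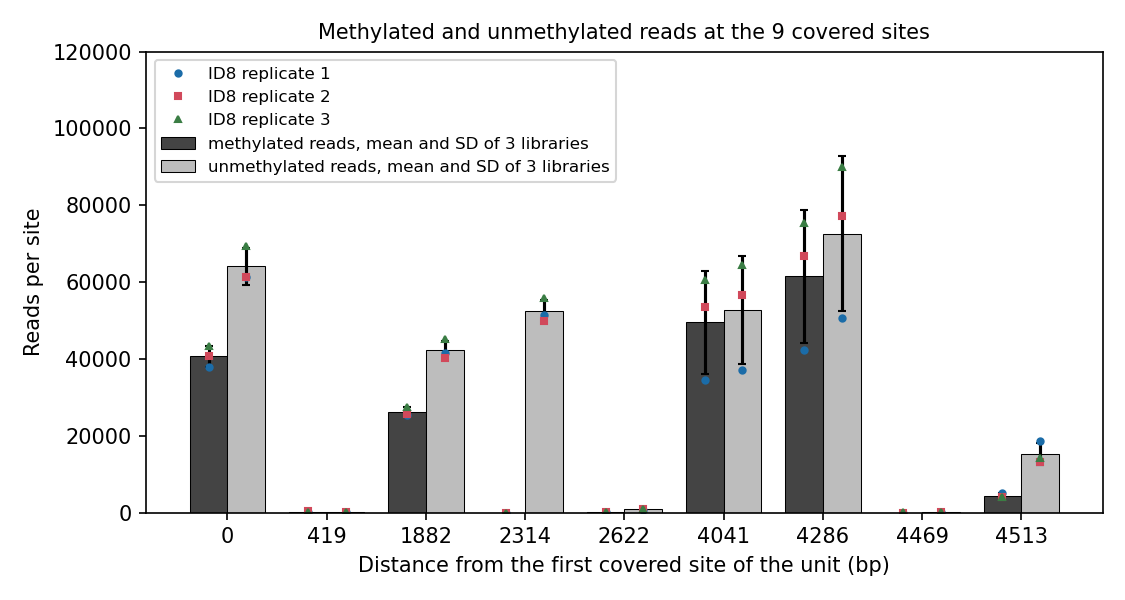
Methylated (dark bars) and unmethylated (light bars) reads at each covered site, as the mean and SD of 3 libraries with the single libraries as symbols; the axis starts at 0. The site 2314 bp from the first has unmethylated reads like its deep neighbours and at most 7 methylated reads.

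The surroundings of the unit were almost unread. The nearest listed sites outside it, at 39919270 and 40066770, had 0 reads in every library. The nearest covered sites of chromosome 17 lay 718 kb before and 1025 kb after the covered members, at 39263662 and 41010454. They were at 65.0% ± 6.10 (SD, n = 3) over 369 summed reads and at 81.8% ± 5.58 over 45. Of the 73 listed sites between these and the unit, 18 had any read, with 116 summed reads in all and at most 33 at 1 site.

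The authors also deposited an adjusted percent, which raises the methylated-to-unmethylated odds of every site by 1 library-wide factor, 2.02, 1.81 and 1.73 in replicates 1, 2 and 3. With it the mean of the unit was 42.2%, 42.6% and 41.0% (41.9% ± 0.845, SD, n = 3). The site 39981605 moved to 66.4% ± 2.14, 39985227 to 63.4% ± 1.67, 39985472 to 61.0% ± 1.83 and 39981186 to 54.0% ± 1.91. The site 39983500 was at 0.0167% ± 0.0115, where the counts gave 0.0084%, and 39983808 was at 7.64% ± 0.448. Since 1 factor applies to all sites of a library, the order of sites within a library is the same on both scales. The order of libraries is not: at 39981186 the adjusted percent was 55.5%, 54.6% and 51.8%, highest in replicate 1, whereas the counts put replicate 2 highest.

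The 3 libraries were then compared at each site. The choice of the unit did not use differences between libraries, but it used depth, and depth sets how small a difference the test can call. The 6 deep members had 17069 to 165412 reads per library, so the members' share of calls cannot be read against that of all sites as a property of the unit. Fisher's exact test (two-sided) was run on methylated and unmethylated reads at all 24112 covered sites, with Benjamini-Hochberg adjustment over all of them. Between replicates 1 and 2 it called 1 of the 9 members at an adjusted p under 0.05, against 0.0415% of all sites tested. Between replicates 2 and 3 it called 2 of 9, against 0.0249%. Between replicates 1 and 3 it called 0 of 9, against 0.0373%. At an unadjusted p under 0.05 the members numbered 4, 4 and 0 for these pairs, while 3.02%, 2.84% and 3% of all sites passed.

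The site called in both comparisons with replicate 2 was 39981186. It was 1.78 points higher in replicate 2 than in replicate 1 (Fisher's exact test, adjusted p = 5.89e-12) and 1.60 points lower in replicate 3 than in replicate 2, a signed difference of -1.60 (adjusted p = 9.01e-10, same exact test). Both calls were also made by a chi-square scaled down by its mean excess over counting error. The mean was taken over all sites with a smallest expected count of at least 5. The adjusted p of the scaled chi-square was 9.70e-08 and 7.86e-07. Such a mean cannot show the excess at 39981186, which had 99173 to 112779 reads per library. The median covered autosomal site outside the unit had 158, 187 and 213 reads in replicates 1, 2 and 3. The 100 deepest sites outside the unit went down to 5979 summed reads. The scaling thus cannot tell whether the calls exceed the spread at this depth. This scaled test called 1, 0 and 1 of the 9 members for replicates 1 and 2, 1 and 3, and 2 and 3, against 0.00829%, 0.00415% and 0.00415% of all sites, and it gave the same counts and shares with the excess of the 500 deepest sites, with or without the unit. The site 39985472 was 0.808 points lower in replicate 3 than in replicate 2, a signed difference of -0.81 (Fisher's exact test, adjusted p = 0.0290), and this call was lost with that scaling (adjusted p = 0.344). With a minimum of 20 points Fisher's test called 0 of 9 members for each pair, against 0.00415%, 0.00415% and 0% of all sites. Among sites with at least 50 reads it called 2, 0 and 2 of 8 members, against 0.0673%, 0.0673% and 0.0429%; the second member between replicates 1 and 2 was 39985472. The largest differences, 8.90 and 7.87 points at 39985655, came from its 43 to 80 reads and were not called (adjusted p = 1 by Fisher's exact test for both).

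The called differences were thus at most 1.78 points in size. Replicate 2 had the highest level at 6 of the 9 members. Over the 3826 partial sites outside the unit the mean level was 37.5%, 38.7% and 38.0% in replicates 1, 2 and 3, also highest in replicate 2. Over the 7 partial members it was 37.1%, 39.8% and 38.7%. These orders depend on the scale. By the adjusted percent the partial sites outside the unit averaged 52.0%, 50.9% and 49.3%, highest in replicate 1, and the partial members 53.2%, 53.7% and 51.6%. Whether this shift over all partial sites bears on the calls was not tested.

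The share of reads per site also differed between libraries. Relative to all reads of a library, 39985227 went from 0.932% in replicate 1 to 1.20% and 1.21% in replicates 2 and 3, and 39985472 from 1.21% to 1.57% and 1.60%. The site 39985699 went the other way, from 0.309% to 0.186% and 0.175%. The sites 39981186, 39983068 and 39983500 also had smaller shares in replicates 2 and 3, for example 0.869%, 0.717% and 0.701% at 39983068. The share of the whole unit nevertheless stayed within 5.29% to 5.34%. These are shares of reads with no test.

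Over the rest of the genome, depth ratios between libraries differed with the distance from a site to its nearest listed site. Sites with a neighbour over 200 and up to 250 bp away had a median log2 ratio of replicate 2 to replicate 1 of 0.39, and sites at 400 to 500 bp of -0.29. The member 39985227, 245 bp from its neighbour, was at 0.36, and 39983068, at 432 bp, was at -0.28. In both ratios to replicate 1, 4 of the 9 members (39981186, 39983068, 39985227 and 39985472) lay between the quartiles of the sites of their spacing. Whether fragment length sets the ratios of the members was not tested. Another 2 members, 39981605 and 39983808, lay between the quartiles for replicate 3 only. The remaining 3 lay outside in both ratios. The deep site 39983500, 308 bp from its nearest neighbour, was at -0.30 and -0.31, where the quartiles of its spacing ran from -0.16 to 0.03 and from -0.17 to 0.0063. The shallow site 39985655 was at 0.40 and 0.47, above upper quartiles of 0.32 and 0.40. The site 39985699 was at -0.74 and -0.82 for replicates 2 and 3, where sites with a neighbour up to 50 bp away had medians of 0.02 and 0.10. Its next listed site on the other side is 81071 bp away. Sites with a neighbour over 500 and up to 700 bp away had medians of -0.71 and -0.75.

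**Figure D4:**
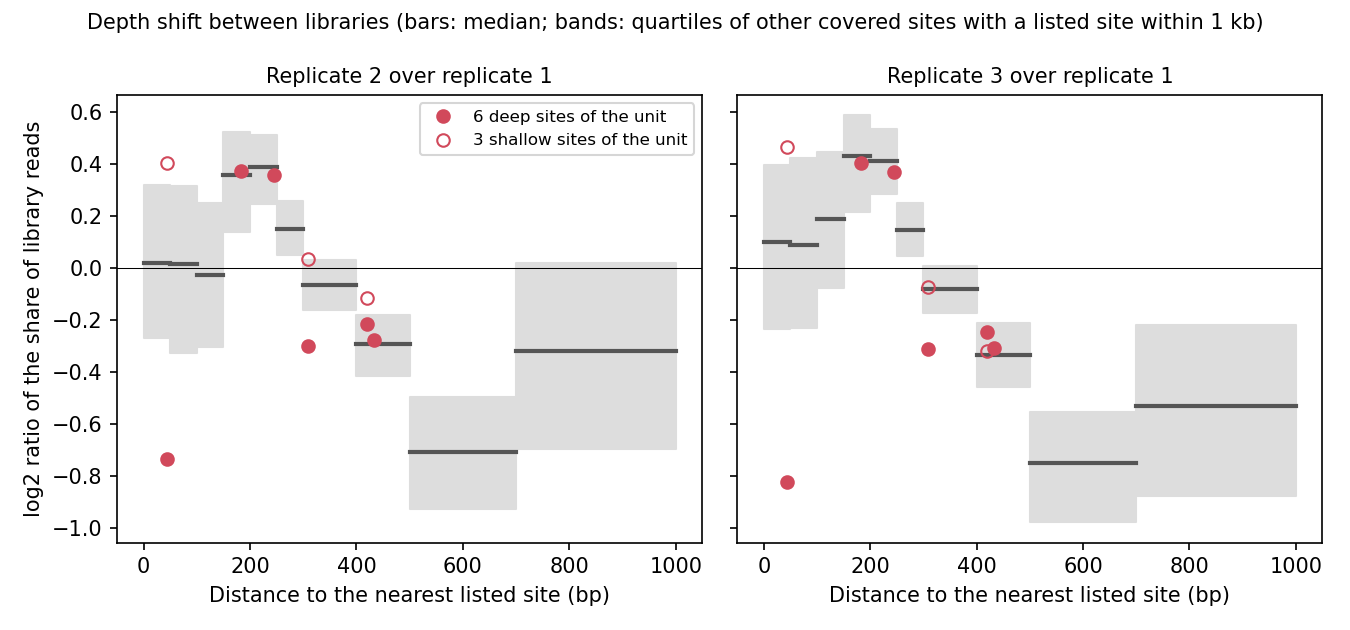
log2 ratio of a site's share of library reads, replicate 2 (left) or 3 (right) over replicate 1, against the distance in bp to the nearest listed site; lines and bands are medians and quartiles of other covered sites, filled points the 6 deep and open points the 3 shallow members. Members 183 and 245 bp from a neighbour lie above 0, the deep ones at 308, 419 and 432 bp below 0, and 39985699 lies at -0.74 and -0.82.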

How the data were processed

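DREAM libraries of genomic DNA with spiked methylation standards were sequenced on an Illumina HiSeq2500, per the labels' protocols. Bowtie2 and SAMtools and the builds mm9 and rn4 are named in the submitters' processing notes, without versions or roles. Counts per site (methylated, unmethylated and all reads) were deposited without normalization. The percent columns the authors deposited are the methylated share and an adjusted share, and the origin of its factor is not stated in the labels or headers. The whole-series table holds the summed counts (46411 of 46411 sites) and was not used further.

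Levels were computed from the counts at sites that reached 10 reads in every library, with Python 3.11.15 and scipy 1.17.1. Every member is named. Outside the unit the named sites are the 5 deepest, the nearest covered ones on each side, and the 5 nearest in level among the 100 deepest. The members and lists were chosen with earlier results of these data known. The Fisher procedure was tested on simulated data whose reads varied by counting error only. The mean chi-square of the real libraries was taken over all sites with a smallest expected count of at least 5. It was 1.40, 1.37 and 1.30 for replicates 1 and 2, 1 and 3, and 2 and 3. The simulation thus cannot show how the test behaves with that extra spread. The alternatives were other read minimums, the adjusted percent, pooled counts, other depth references, other tests and leaving out each library. The limit to sites with at least 10000 summed reads, and the spread of the 500 deepest sites without the unit, were chosen after seeing the data.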

Additional observations from a re-analysis of the deposited data

How the results depend on the processing

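The mean level of the unit, 30.4%, was 41.9% by the adjusted percent, 37.7% with sites weighted by their reads and 32.3% over the 6 sites with at least 10000 summed reads. The span of levels, 51.7 points, was 66.4 points by the adjusted percent and 48.4 over those 6 sites. These shifts follow from the multiplied odds, the weights and the sites kept. Leaving out 1 library gave means of 29.9% to 31.0% and spans of 50.1 to 53.0 points. The depth of the median member, 269.8 times the chromosome 17 median, was 143 times with sites that have at least 2 listed sites within 500 bp and 9302 times when sites with as little as 1 read per library set the median, and 259 to 277 times with 1 library left out. Calls between replicates 1 and 2 went from 1 to 0 with a minimum of 20 points and to 2 with at least 50 reads, where fewer sites were tested. Calls between replicates 2 and 3 went from 2 to 0 with 20 points. They went to 1 with the chi-square divided by the excess spread of all sites, of the 500 deepest, or of those without the unit. Each excess used only sites with a smallest expected count of at least 5. The cause of these changes was not tested. Replicate 2 takes part in every call, and without it 0 members were called by Fisher's exact test or the chi-square, and 0 at an unadjusted p under 0.05. Each of the 9 site levels moved beyond its SD under the adjusted percent, and none did with summed counts. Leaving out 1 of 3 libraries cannot move a mean by its SD, so those values show nothing about stability. No paired analysis was possible because the series holds 1 group.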

Other observations

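Outside the unit, 1 site lay within the depth range of its 6 deep members. At position 108873185 of chromosome 11, 73705, 78998 and 88119 reads were counted in replicates 1, 2 and 3, or 419, 414 and 404 times the chromosome 17 median. It was almost unmethylated, with 52, 63 and 45 methylated reads (0.0671% ± 0.0146, SD, n = 3), like 39983500 in the 45S unit. Its nearest listed sites lay 63301 and 28942 bp away. What lies there was not analysed here. The next sites by depth, with 15577, 11714, 10846 and 9724 summed reads, lay at 10956217 on chromosome 19 (0.0873% ± 0.0229, SD, n = 3), 7230846 on chromosome 7 (24.9% ± 1.01), 87488485 on chromosome 1 (48.9% ± 2.28) and 103170899 on chromosome 15 (6.69% ± 1.04).

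Partial levels were uncommon among other deep sites. Of all 24103 covered sites outside the unit, 3826 were partial. The 6 deep members held 5 partial sites and 1 low site, but the unit was selected as partly methylated and very deep. Their contrast with other sites is thus no result about the unit. Of the 100 deepest sites outside the unit, 86 were low, 9 were partial and 5 were high. These 100 went down to 5979 summed reads, whereas the deep members had at least 58984. The 5 nearest to the mean of the unit in level were at 45233188 on chromosome 19 (29.3% ± 0.920, SD, n = 3), 98323291 on chromosome 15 (27.4% ± 1.90), 7230846 on chromosome 7, 46826534 on chromosome 19 (36.2% ± 0.656) and 13104077 on chromosome 15 (40.1% ± 0.995). They held 6169 to 11714 summed reads.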
